A study of Mus musculus with 18 samples.

Results

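Integrins are the receptors by which cells hold on to the matrix around them and to each other, and each is a pair of an alpha and a beta subunit. Laminins are the main cell-binding proteins of the basement membrane, the sheet under the epithelium and around vessels, muscle and nerves, and each is built of an alpha, a beta and a gamma chain. Nidogens link the laminin network to type IV collagen. In the colon, integrins of epithelial cells anchor the crypts to laminin, while the integrins with the beta 2 or beta 7 subunit bring leukocytes into the wall and keep them there.

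These genes were taken by symbol, by a rule that uses no measured value. All rows named Itga or Itgb with a number, the alpha subunits with a letter (Itga2b, Itgad, Itgae, Itgal, Itgam, Itgav and Itgax), all laminin chains and both nidogens gave 39 of the 35405 genes in the table. They are 26 integrin subunits, 11 laminin chains and 2 nidogens, and all 39 had enough counts to be among the 20855 genes tested.

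RNA was measured in 18 libraries of mouse colon in 3 groups of 6. The vector group is the control and carries no treatment named in the labels. The TNBS group is named for trinitrobenzene sulfonic acid, a hapten given into the colon to cause a colitis used as a model of Crohn's disease, and the IBC group for isobavachalcone, a plant chalcone whose action on this colitis the study asks about. The labels give tissue and group alone, so it is not known from them whether the IBC animals also received TNBS, what strain, age, dose or time was used, which stretch of colon was taken, or whether each library is 1 animal. The p-values therefore measure the spread between libraries, which may be technical.

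The libraries held between 55.7 and 78.9 times 1e6 counts each. The libraries fell into 2 sets by Hoxb13, a homeobox gene of the distal gut: 12 libraries had 123 to 598 counts per 1e6 counts (CPM) and 6 had 0 to 1.44. The latter, called Hoxb13-low here, were vector 3 and 4, TNBS 2 and 3, and IBC 2 and 5, so each group held 4 Hoxb13-high and 2 Hoxb13-low libraries. TNBS 5 stood apart in that its long genes were low against its short ones, by 1.11 on the log2 scale, where the other libraries lay between -0.31 and 0.37. The genes described here are long: 37 of 39 exceeded the median length of tested genes, with a median of 7657 bases against 3862. Vector 3 had 17.98% of its counts on mitochondrial genes, against 4.48% to 9.20% elsewhere. Markers of colon epithelium summed to between 9593 and 35933 CPM in every library, with none at 0, and vector 6 also carried up to 17364 CPM of pancreatic acinar markers. In RNA from whole tissue, fewer cells of a type and less RNA per cell cannot be told apart.

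Promoter sequences are shown for Lamb1, Nid1 and Itgam, a laminin chain and a nidogen with close levels and the myeloid integrin subunit. In the Hoxb13-high libraries all 3 were higher in every IBC library than in any vector library. Over all 18 libraries Nid1 did not reach an unadjusted p under 0.05 in IBC against vector (edgeR). Each is the 250 bases before the RefSeq start on the plus strand of GRCm38.p6, written 5′ to 3′. Capitals mark matches, on either strand, to any of 4 motifs named after the sequences. No match overlaps another.
Lamb1 at chr12:31265043-31265292: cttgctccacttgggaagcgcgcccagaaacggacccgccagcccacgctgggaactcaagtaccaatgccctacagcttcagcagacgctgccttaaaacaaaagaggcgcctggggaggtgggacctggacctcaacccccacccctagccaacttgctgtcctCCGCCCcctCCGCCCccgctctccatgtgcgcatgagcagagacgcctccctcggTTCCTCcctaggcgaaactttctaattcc
Nid1 at chr13:13437352-13437601: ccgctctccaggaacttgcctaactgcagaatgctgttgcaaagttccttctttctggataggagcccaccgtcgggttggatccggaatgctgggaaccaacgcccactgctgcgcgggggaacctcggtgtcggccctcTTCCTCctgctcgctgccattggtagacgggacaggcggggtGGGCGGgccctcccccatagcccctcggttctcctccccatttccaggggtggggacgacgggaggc
Itgam at chr7:128062390-128062639: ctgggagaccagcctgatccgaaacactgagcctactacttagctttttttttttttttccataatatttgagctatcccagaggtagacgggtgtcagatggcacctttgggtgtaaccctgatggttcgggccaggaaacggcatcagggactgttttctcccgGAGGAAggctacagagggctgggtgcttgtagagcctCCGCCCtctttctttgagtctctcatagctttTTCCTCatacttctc
The Lamb1 window holds 2 GC boxes and 1 purine motif, the Nid1 window 1 of each, and the Itgam window 1 GC box and 2 purine motifs. Of the 39 genes, 24 had an entry in the RefSeq table, which holds 32851 windows of this kind. These 24 genes had 27 windows, and a gene was counted if any of its windows matched. Lama1 and Nid2 were not among the 24. The GC box, a motif bound by Sp1 and related factors, was searched as GGGCGG. It was found in 9 of the 24 genes (10 of the 27 windows) and in 32.7% of all windows. The purine motif is of the kind bound by PU.1, a factor of myeloid cells, and was searched as GAGGAA. It was found in 14 of the 24 genes (14 of the 27 windows) and in 23.3% of all windows. The site of the AP-1 factors, which answer to stress and growth signals, was searched as TGANTCA. That site was found in 1 of the 24 genes (1 of the 27 windows) and in 6.75% of all windows. The core promoter motif TATAAA was found in 0 of the 24 genes (0 of the 27 windows) and in 12.4% of all windows. A match is a description of the letters and not evidence of binding.

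Levels between genes are compared in FPKM, the deposited fragments per kilobase and 1e6 fragments, which accounts for gene length. Itgb1, the beta subunit shared by most matrix-binding integrins, had the highest level at 88.9 ± 18.5 FPKM (SD, n = 18), with a range of 51.5 to 115. In each library it stood 2.76 to 5.55 times above the next of the 39 genes. The next were subunits and chains of the epithelial anchor: Itga3 at 20.3 ± 5.68 FPKM, Itgb4 at 18.4 ± 7.11, Itga6 at 15.7 ± 5.83 and Lamb3 at 15.7 ± 7.05 (SD, n = 18). The alpha 6 and beta 4 subunits form the integrin of hemidesmosomes, and Lamb3 is a chain of the laminin to which hemidesmosomes bind. These 4 neighbours in the order overlap in their SD. Itgb5 and Itga5, which make receptors for vitronectin and fibronectin, followed at 14.2 ± 2.97 and 12.8 ± 5.76 FPKM.

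Among the laminin chains, Lamc1 at 10.3 ± 5.4 FPKM and Lamb1 at 8.72 ± 4.12 FPKM, the gamma and beta chains of most laminins, lay close to Nid1 at 9.31 ± 5.33 FPKM, a linker that binds the gamma 1 chain (SD, n = 18 each). Their values overlapped. The alpha chains were all lower. Lama5, the main alpha chain of adult epithelial basement membrane, had 3.82 ± 2.15 FPKM, Lama4 of vessels and muscle had 3.48 ± 1.79, and Lama3, the partner of Lamb3, had 2.89 ± 3.05. The alpha chain of early embryonic laminin, Lama1, was the lowest alpha chain at 0.487 ± 0.518 FPKM.

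The leukocyte subunits had lower levels than those of the epithelial anchor. Itgb2, the common beta subunit of leukocyte integrins, had 5.02 ± 2.76 FPKM (SD, n = 18). It held 0.608 to 1.37 times the summed FPKM of its 4 alpha partners in each library: Itgal of lymphocyte adhesion, Itgam of neutrophils and macrophages (CD11b), Itgax of dendritic cells and macrophages (CD11c), and Itgad. Itgad was the lowest of the 39 genes at 0.0419 ± 0.0393 FPKM and was listed at 0 in 1 vector and 3 TNBS libraries. Itgb7, which pairs with Itga4 in gut homing and with Itgae in lymphocytes within the epithelium, had 2.94 ± 1.28 FPKM, Itga4 0.945 ± 0.415 and Itgae 1.11 ± 0.452. The other genes under 0.5 FPKM on average were Lama1, the platelet subunit Itga2b, Lamc3, Itgb8 and the cartilage collagen receptor Itga10.

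**Figure D1:**
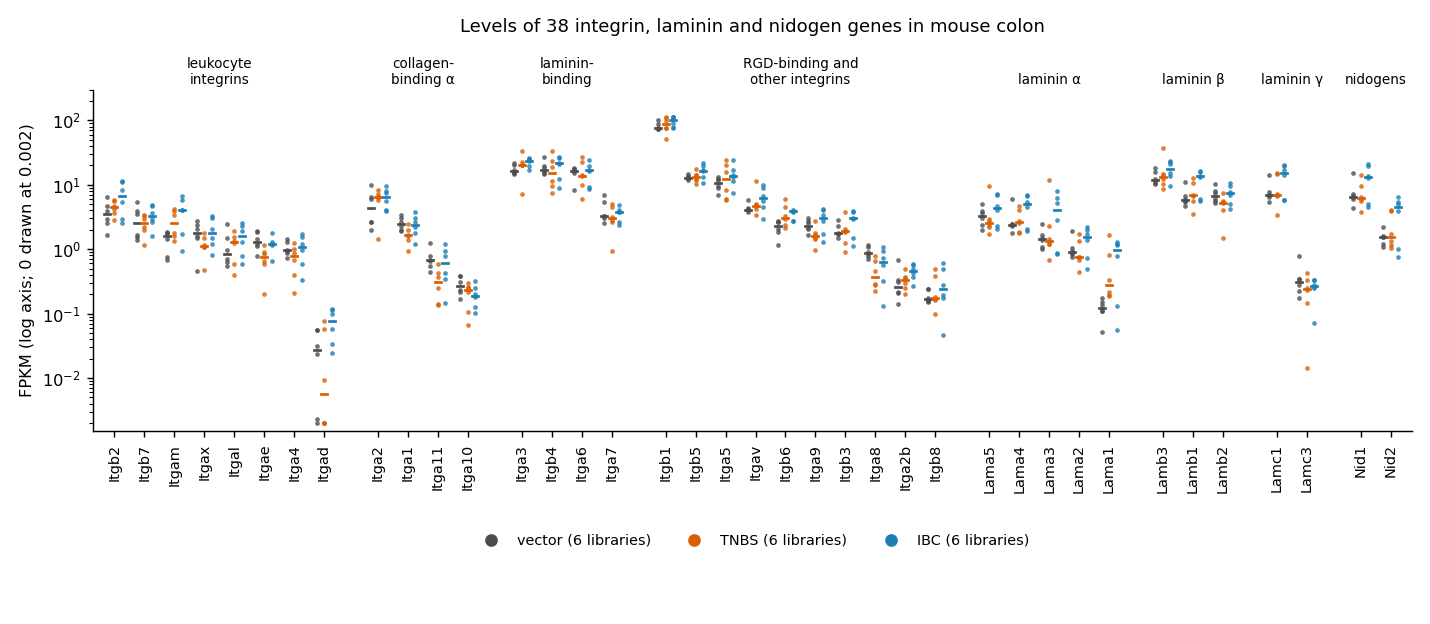
Level of 38 of the 39 genes in all 18 libraries, in FPKM on a log axis, grouped by role; each point is a library, coloured by group, short lines are group medians, and a value of 0 is drawn at the lower edge. Itgb1 lies above all others in each library, between 51.5 and 115 FPKM, and Itgad is lowest on average.

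The first comparison asks how these genes differ between TNBS and vector colon. The laminin alpha chain Lama1, the epithelial integrin subunit Itgb6 and the myeloid subunit Itgam had higher values in TNBS. Several other integrin subunits had lower ones, Itga1, Itga8, Itga11 and Itgae among them. None of the 39 genes passed an adjusted p of 0.05 in edgeR's quasi-likelihood test, which called 0.0192% of all tested genes. At an unadjusted p under 0.05, 4 of the 39 genes were higher (Itgam, Itgb6 and Lama1 among them), against 10.4% of all genes tested, and 6 were lower (Itga1, Itga8, Itga9, Itga11, Itgae and Lamb2), against 7.32%. The higher count is at the share of all genes and the lower count, at 15.4% of the 39, is above it. With DESeq2, 1 of the 39 was called (Lama1, adjusted p 0.0206), where 2.75% of all genes were. The median log2 difference was 0.03, with 20 of 39 genes higher, and over all tested genes it was -0.01 with 48.9% higher.

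Lama1 (chromosome 17, 68004254 to 68129642 in the table, whose build is not given in the sources used here) ran from 0.563 to 1.91 CPM in vector, with a median of 1.31, and from 2.09 to 18 CPM in TNBS, with a median of 3.36. All 6 TNBS libraries lay above all 6 vector libraries, which was true of 0.432% of all tested genes; none of the 39 lay wholly below, against 0.743%. Its log2 fold change was 2.18 ± 0.67 (SE; edgeR adjusted p 0.164). TNBS 4, at 18 CPM, was the highest library, and the fold change without it was 1.5. Lama1 made up 1.45 ± 0.602% of the summed alpha chain FPKM in vector and 5.35 ± 5.21% in TNBS (SD, n = 6 each), and 3.25 ± 1.04% in TNBS without TNBS 4 (n = 5).

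Itgb6, the epithelial subunit that with Itgav forms an activator of latent TGF-beta, ran from 10.8 to 21.0 CPM in vector, with a median of 18.1, and from 17.1 to 43.3 CPM in TNBS, with a median of 24.6. Of the TNBS libraries, 5 lay above the vector median, and the log2 fold change was 0.72 ± 0.22 (SE; edgeR adjusted p 0.165). Itgam, the CD11b subunit, ran from 4.19 to 10.3 CPM in vector, with a median of 8.77, and from 7.49 to 22.9 CPM in TNBS, with a median of 15.7, a log2 fold change of 0.98 ± 0.39 (SE; edgeR adjusted p 0.223).

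Among the alpha partners of Itgb2, Itgam made up 33.6 ± 10.9% of their summed FPKM in vector and 52.9 ± 13.1% in TNBS (SD, n = 6 each), while Itgax, the CD11c subunit, was below the vector median in 6 of 6 TNBS libraries. Neutrophil markers summed to 4.11 to 158 CPM in vector and 88.4 to 943 CPM in TNBS, and 7 of 8 of them were higher at an unadjusted p under 0.05. Most of each of these sums was Ly6g, at 2.21 to 154 CPM in vector and 77.0 to 692 CPM in TNBS. For monocyte and macrophage markers the sums were 97.3 to 203 CPM in vector and 146 to 453 CPM in TNBS, with 5 of 8 higher. Their part in the Itgam value was not tested.

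Itgae, the CD103 subunit of intraepithelial lymphocytes, ran from 4.71 to 9.57 CPM in vector, with a median of 6.58, and from 1.26 to 5.80 CPM in TNBS, with a median of 3.71. All 6 TNBS libraries lay below the vector median, though the ranges overlapped, with a log2 fold change of -0.91 ± 0.30 (SE; edgeR adjusted p 0.182). T cell markers summed to 12.6 to 54.8 CPM in vector and 19.8 to 30.8 in TNBS. Dendritic cell markers summed to 8.29 to 18.4 and 5.38 to 11.8 CPM. At an unadjusted p under 0.05, 0 of 8 T cell markers were higher or lower. Of 6 dendritic cell markers 1 was higher and 1 lower, against 10.4% and 7.32% of all genes. Their part in the Itgae value was not tested. Itga8, the alpha 8 subunit of smooth muscle and mesenchyme, ran from 5.71 to 9.31 CPM in vector, with a median of 7.73, and from 2.28 to 5.87 CPM in TNBS, with a median of 3.10. Its log2 fold change was -1.05 ± 0.36 (SE; edgeR adjusted p 0.190), again with 6 of 6 TNBS libraries below the vector median.

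The collagen-binding subunits Itga11, of fibroblasts, and Itga1, of muscle and fibroblasts, were lower in the same way, each in 6 of 6 TNBS libraries against the vector median. Itga11 had 4.30 ± 2.10 CPM in vector and 1.81 ± 0.924 in TNBS (SD, n = 6 each), a log2 fold change of -1.25 ± 0.43 (SE; edgeR adjusted p 0.192). It was -0.82 without vector 3 and TNBS 5. Itga1 had 53.7 ± 16.3 CPM in vector and 34.8 ± 7.76 in TNBS, a log2 fold change of -0.62 ± 0.22 (SE; edgeR adjusted p 0.199), which became -0.37 without those 2 libraries. Smooth muscle markers moved the same way: 5 of 10 were lower in TNBS at an unadjusted p under 0.05, and their sums were 3167 to 9141 CPM in vector and 2062 to 4805 in TNBS. Fibroblast markers did not: 0 of 8 were higher and 1 was lower at that p, with sums of 985 to 2041 CPM in vector and 984 to 3264 in TNBS. In the Hoxb13-high libraries 2 of 8 fibroblast markers were higher and 1 lower. The part of either list in the values of Itga1, Itga8 and Itga11 was not tested.

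**Figure D2:**
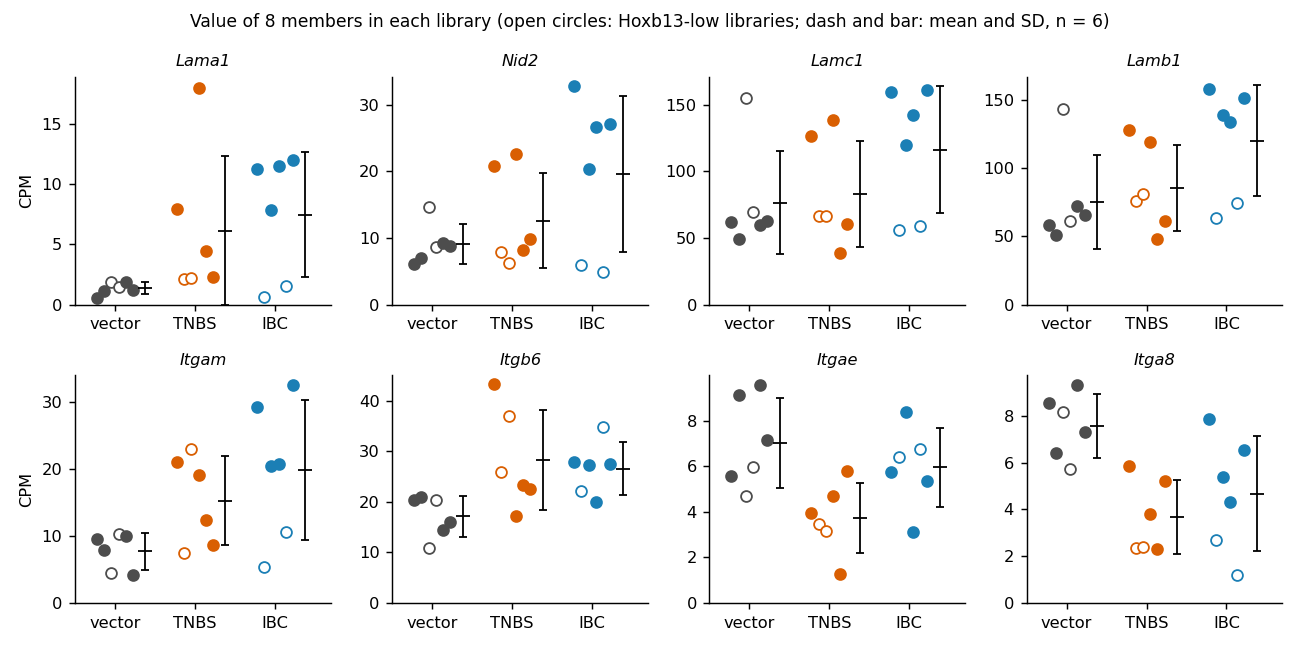
CPM of 8 genes in each library by group; open circles are Hoxb13-low libraries, and dashes with bars are the mean and SD of the 6 libraries, cut off at 0. For Lama1 all TNBS libraries lie above 1.91 CPM, the highest vector library, and for Lama1, Nid2, Lamc1 and Itgam the open circles of IBC lie below its filled ones.

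The second comparison sets IBC against TNBS and uses the same TNBS libraries as the first. None of the 39 genes was called by edgeR, where none of the 20855 was (0%), and none by DESeq2, which called 0.00959% of all genes. At an unadjusted p under 0.05, 2 were higher in IBC (Itga9 and Itgae), against 1.71% of all genes, and 0 were lower, against 2.22%. Most differences ran one way: 35 of 39 genes had a log2 difference above 0, with a median of 0.35, against 50.3% of all tested genes and a median of 0.00. No gene of the 39 had groups that did not overlap, higher (0.0527% of all genes) or lower (0.0959%). Without TNBS 5, the library with low long genes and the lowest share of its counts on these genes (0.0954%, against 0.137% to 0.313% elsewhere), the count was 27 of 39 with a median of 0.25, where 51.7% of all genes were higher. Leaving out each other TNBS library in turn gave 32 to 38. The part of gene length in this shift was not tested. The 2 genes at an unadjusted p under 0.05 became 7 without TNBS 1, 6 without IBC 5, 4 without IBC 2, and 1 without TNBS 5 or IBC 3. The 35 are not independent of each other, since many of these genes varied together across libraries. All 8 leukocyte subunits, all 5 alpha chains, all 3 beta chains and both nidogens were among them.

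Itga9, a receptor for tenascin and other ligands on muscle and endothelium, ran from 10.2 to 21.4 CPM in TNBS, with a median of 13.7, and from 12.5 to 31.8 CPM in IBC, with a median of 24.2. Its log2 fold change was 0.66 ± 0.24 (SE; edgeR adjusted p 0.925, as for the next 7 genes). Itgae ran from 3.10 to 8.37 CPM in IBC, with a median of 6.09 against 3.71 in TNBS, and its log2 fold change was 0.68 ± 0.30 (SE). For Itga9 and Itgae alike, 5 of 6 IBC libraries lay above the TNBS median. The next 6 by p were Itga11 at 0.89 ± 0.43, Itga1 at 0.43 ± 0.22, Lamb2 at 0.50 ± 0.27, Itgax at 0.63 ± 0.35, Nid1 at 0.63 ± 0.37 and Lamb1 at 0.49 ± 0.30 (log2 fold change ± SE). In Itga11 and Itga1, 5 of 6 IBC libraries exceeded the TNBS median, and in the other 4 genes 4 of 6. Without IBC 1 the Itga1 value was 0.28. Of these 8 genes, 7 had negative log2 differences in the first comparison, which shares the TNBS libraries (Itga1, Itga9, Itga11, Itgae, Itgax, Lamb2 and Nid1).

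The third comparison sets IBC against vector and shares libraries with both others. Lama1, Itgam, Nid2 and Lama3 were among the genes with the largest differences, all with higher values in IBC. None of the 39 genes was called by edgeR, where none of the 20855 was (0%). At an unadjusted p under 0.05, 7 were higher (Itgam, Itgb2, Itgb6, Lama1, Lamb1 and Nid2 among them), 17.9% of the 39 against 4.90% of all genes, and 0 were lower, against 3.63%. The 7 became 3 without IBC 1 and 4 without IBC 3 or IBC 6, and the 0 became 2 without IBC 1 and 1 without IBC 6. DESeq2 called 2 of the 39, Lama1 (adjusted p 0.0113) and Itgam (adjusted p 0.0493), where 0.892% of all genes were called. The median log2 difference was 0.29, with 28 of 39 genes higher, against -0.01 and 49.1% over all genes. None of the 39 had IBC wholly above vector (0.446% of all genes) or wholly below it (0.633%).

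Lama1 ran from 0.631 to 12 CPM in IBC, with a median of 9.57 against 1.31 in vector, and its log2 fold change was 2.46 ± 0.67 (SE; edgeR adjusted p 0.279). The IBC values were split: 4 libraries had 7.84 to 12 CPM, and IBC 2 and IBC 5, the Hoxb13-low ones, had 0.631 and 1.56 CPM, within the vector range. Itgam showed the same split, with 20.4 to 32.5 CPM in 4 IBC libraries and 5.4 and 10.6 CPM in IBC 2 and IBC 5. Its log2 fold change was 1.36 ± 0.39 (SE; edgeR adjusted p 0.303), and its partner Itgb2 had 0.77 ± 0.33 (SE; edgeR adjusted p 0.532).

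Nid2, the second linker of laminin and collagen (chromosome 14, 19801333 to 19861855 in the table), ran from 6.12 to 14.7 CPM in vector, with a median of 8.74, and from 4.91 to 32.8 CPM in IBC, with a median of 23.5. Here too IBC 2 and IBC 5 were the lowest 2 libraries of their group, and the log2 fold change was 1.11 ± 0.44 (SE; edgeR adjusted p 0.484). Lamb1 had 75.2 ± 34.3 CPM in vector and 120 ± 40.7 in IBC (SD, n = 6 each), a log2 fold change of 0.67 ± 0.30 (SE; edgeR adjusted p 0.547). Lama3, a chain of the laminin to which hemidesmosomes bind, had a log2 fold change of 1.24 ± 0.61 (SE; edgeR adjusted p 0.611). Itgb6 had 0.63 ± 0.22 (edgeR adjusted p 0.396), with 6 of 6 IBC libraries above the vector median. Of the 7 genes just given, Itgb6, Itgb2 and Itgam had log2 differences above 0 in both sets of libraries taken apart. In the Hoxb13-high and Hoxb13-low libraries they were 0.54 and 0.86 for Itgb6, 0.88 and 0.39 for Itgb2, and 1.73 and 0.12 for Itgam.

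**Figure D3:**
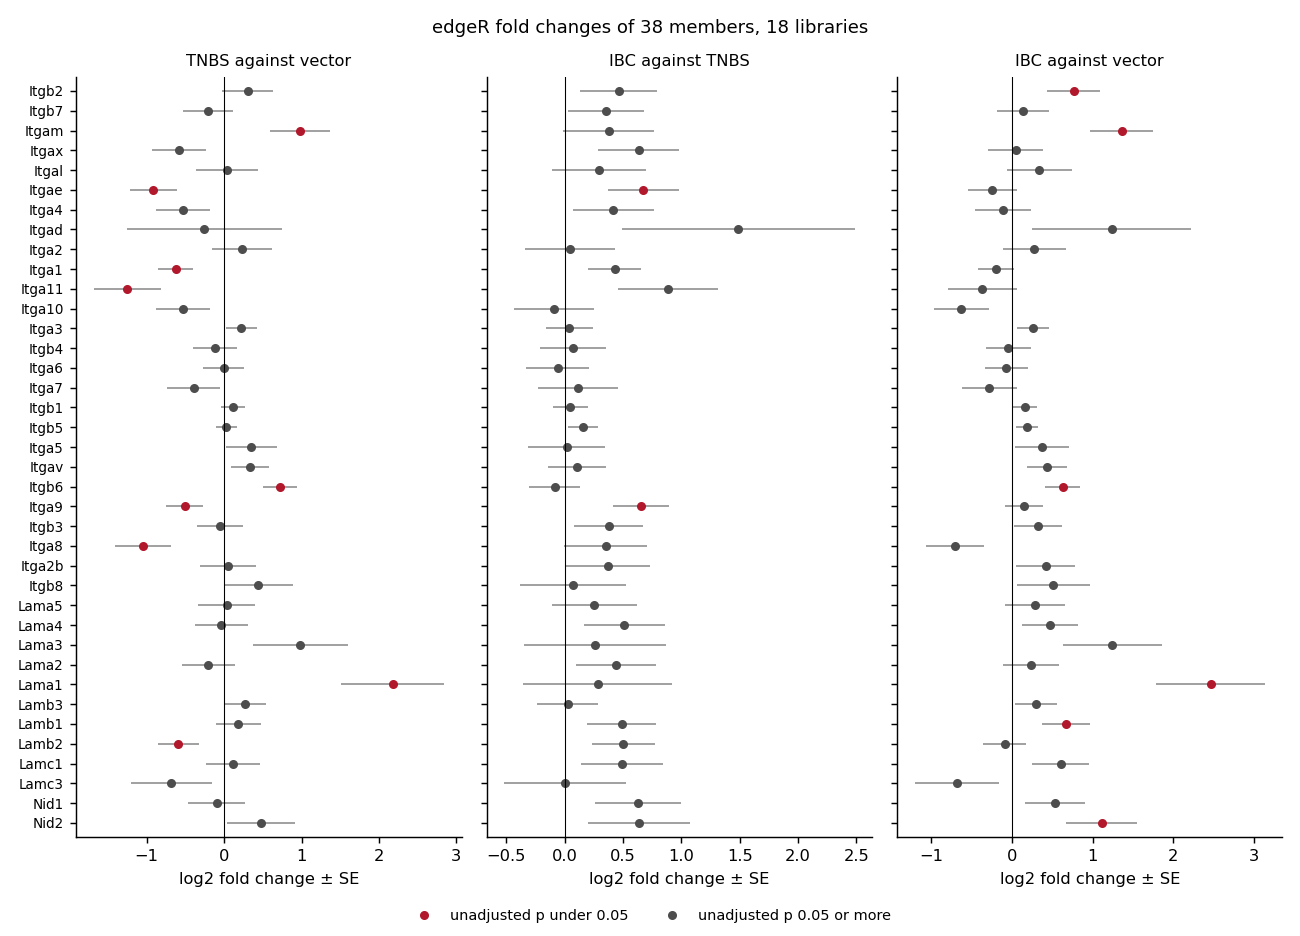
Log2 fold change with its SE for 38 of the 39 genes in the 3 comparisons, from edgeR fits of all 18 libraries; red points have an unadjusted p under 0.05, and none passed after adjustment. In the middle panel 35 of the 38 points lie to the right of 0.

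Because Hoxb13 split every group, the comparisons were repeated within the 12 Hoxb13-high libraries (4 per group) and within the 6 Hoxb13-low ones (2 per group). In the Hoxb13-high libraries, all 5 laminin alpha chains, Lamb1, Lamc1, both nidogens and the myeloid subunit Itgam had higher values in every IBC library than in any vector library, while Lamb2, Lamb3 and Lamc3 overlapped. Of the 39 genes, 16 had all 4 IBC libraries above all 4 vector libraries, 41.0% against 6.82% of all genes, and 0 had the reverse, against 4.93%. At an unadjusted p under 0.05, 17 were higher, 43.6% against 7.16% of all genes, and 0 were lower, against 2.91%. In all 35 of 39 were higher, where 49.2% of all genes were. The edgeR test called 0.143% of all genes and none of the 39, whose smallest adjusted p was 0.0513. DESeq2 called 7 (Itgam, Lama1, Lama4, Lamb1, Lamc1, Nid1 and Nid2), where 3.17% of all genes were called. The 0 of edgeR became 5 without TNBS 1, 2 without TNBS 4, 7 without TNBS 5 and 6 without TNBS 6, libraries of the group that is not compared here, and the cause was not tested.

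Lama1 in these libraries had 0.563, 1.16, 1.9 and 1.18 CPM in vector and 11.3, 7.84, 11.6 and 12 CPM in IBC, a log2 fold change of 3.18 ± 0.57 (SE; edgeR adjusted p 0.0513). Nid2 had 6.12, 6.92, 9.22 and 8.80 CPM in vector and 32.8, 20.4, 26.7 and 27.1 CPM in IBC, a log2 fold change of 1.81 ± 0.32 (SE; edgeR adjusted p 0.0513). Itgam had 9.58, 7.97, 9.93 and 4.19 CPM in vector and 29.3, 20.4, 20.7 and 32.5 CPM in IBC, a log2 fold change of 1.73 ± 0.33 (SE; edgeR adjusted p 0.0604). In all 3 genes the groups are far apart, with every IBC library more than 2 times above the highest vector library. Lamb1 had 58.0, 50.9, 72.2 and 65.4 CPM in vector and 158, 139, 134 and 151 CPM in IBC, a log2 fold change of 1.27 ± 0.27 (SE; edgeR adjusted p 0.0758). The laminin alpha chains summed to 6.36 to 8.27 FPKM in vector and 14.3 to 25.5 FPKM in IBC. The integrins of the epithelial anchor had log2 differences of 0.11 for Itga6, 0.16 for Itgb4 and 0.44 for Itga3, and of these Itga3 was among the 16 genes with no overlap.

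Within TNBS the libraries were split. In the Hoxb13-high libraries Nid2 had 20.8, 22.7, 8.24 and 9.79 CPM in TNBS, so TNBS 1 and 4 reached the IBC range and TNBS 5 and 6 stayed near vector. Lamb1 had 128, 119, 48.2 and 61.2 CPM there, with the same 2 libraries high. Against TNBS, 37 of 39 genes were higher in IBC, where 52.1% of all genes were. At an unadjusted p under 0.05, 13 of 39 were higher (33.3% against 5.23% of all genes) and 0 lower (against 5.64%), with 0 called by edgeR (0% of all genes) or DESeq2 (0.642%). The 37 became 30 without TNBS 5, and the 13 became 21 without TNBS 1, 7 without TNBS 6 or IBC 6 and 5 without IBC 1. The groups did not overlap for Lamb1 and Lamc3, 5.13% of the 39 against 2.80% of all genes, and 0 lay wholly lower, against 1.63%. For TNBS against vector in this set edgeR called none of the 39 and 0% of all genes, and DESeq2 called Lama1 and 2.40%. At the unadjusted level 5 genes were higher at an unadjusted p under 0.05 (12.8% against 7.03% of all genes) and 4 lower (10.3% against 5.14%). The 5 became 12 without TNBS 5, 10 without TNBS 6 and 3 without TNBS 1, and the 4 became 1 without vector 2 or vector 5 and 2 without TNBS 1, TNBS 4 or TNBS 5. Lama1 was the gene with all TNBS above all vector libraries (1.95% of all genes), and Itga8 the one with all below (3.33% of all genes).

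In the Hoxb13-low libraries most of these genes were lower in IBC than in vector. None of the 39 was called by edgeR in IBC against vector, where 0% of all genes were; at an unadjusted p under 0.05, 15 were lower (38.5% against 7.81% of all genes) and 0 higher (against 6.69%). The median log2 difference was -0.52, against 0.68 in the Hoxb13-high libraries. Each group had 2 libraries here, and vector 3 was well above vector 4 in many of these genes: Nid1 had 138 and 55.1 CPM in vector 3 and 4 and 39.6 and 39.6 in IBC 2 and 5, and Lamc1 had 155 and 69.8 CPM in vector and 55.9 and 59.2 in IBC. Vector 4 was also above both IBC libraries in these 2 genes, but not in Lamb1, with 144 and 61.4 CPM in vector 3 and 4 and 63.7 and 74.2 in IBC 2 and 5. For TNBS against vector in this set, 9 genes were lower at an unadjusted p under 0.05 (23.1% against 7.11% of all genes), among them Nid1, Lama2, Lama5 and Itgb4, and Itgb6 alone was higher (against 6.29%). In all, 11 of 39 were higher, where 46.7% of all genes were. For IBC against TNBS, Itgae was higher at that p (against 1.13% of all genes) and 0 were lower (against 0.85%), and 10 of 39 had a log2 difference above 0, where 49.6% of all genes did.

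Whether the 2 sets differ was tested as an interaction of group and set in all 18 libraries, a test added after the data were seen. For IBC against vector, 18 of 39 genes had a larger difference in the Hoxb13-high libraries at an unadjusted p under 0.05, 46.2% against 7.28% of all genes, and 0 a smaller one, against 4.70%. Those with the smallest p were Nid2 at 2.89 ± 0.53 and Nid1 at 2.64 ± 0.52 in log2 units (SE; edgeR adjusted p 0.0964 each), and Lama1 was larger in size at 3.76 ± 0.91 (SE; edgeR adjusted p 0.133). No member passed in edgeR, which called 0.0048% of all genes, and 9 passed in DESeq2 (Itga1, Itga9, Lama1, Lama2, Lama4, Lamb1, Lamc1, Nid1 and Nid2), which called 1.93%. Without vector 4, without TNBS 5 and without TNBS 6 edgeR called 6, 6 and 1. For TNBS against vector the counts were 9 and 0 (against 2.86% and 1.69% of all genes), and for IBC against TNBS 6 and 0 (against 2.30% and 2.19%). The 9 became 2 without vector 3, 4 without TNBS 1 or TNBS 3, and 5 without vector 2 or TNBS 2. The 6 became 13 without TNBS 1, 3 without TNBS 2 or TNBS 6, 2 without TNBS 3, IBC 5 or IBC 6, and 1 without IBC 1.

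Marker sums of other cells also differed between IBC and vector, but not all lists moved with these values in the Hoxb13-low libraries. Fibroblast markers summed to 1065 to 1898 CPM in the Hoxb13-high vector libraries and 3542 to 4818 in the IBC ones, and to 985 to 2041 and 833 to 1075 CPM in the Hoxb13-low ones. These sums were led by the collagen Col3a1, and not every marker of the list rose. Dpt had 88.8 to 131 CPM in the Hoxb13-high vector libraries and 72.1 to 112 in the IBC ones. Endothelial markers summed to 127 to 155 and 222 to 311 CPM in the Hoxb13-high libraries, and to 128 to 269 and 114 to 150 in the others. Monocyte and macrophage markers summed to 176 to 203 and 265 to 406 CPM in the Hoxb13-high libraries, and to 97.3 to 137 and 152 to 224 in the others, so they were higher in IBC in both sets. Neutrophil markers summed to 47.5 to 158 and 71.7 to 225 CPM in the Hoxb13-high libraries, and to 4.11 to 39.6 and 28.2 to 220 in the others. Ly6g led these sums, with 43.3 to 154 and 38.9 to 196 CPM in the Hoxb13-high libraries. Squamous epithelium markers, led by Krt14, summed to 2.27 to 4.73 and 12.2 to 41.7 CPM in the Hoxb13-high libraries, and to 1.08 to 1.39 and 3.02 to 7.91 in the others. Other markers of that list stayed low in every library, Krt5 at 0.589 CPM or below and Trp63 at 0.143 CPM or below. Ivl was at 0 in every vector and IBC library. Single markers were counted at an unadjusted p under 0.05 for IBC against vector in the Hoxb13-high libraries. Higher were 4 of 8 fibroblast, 6 of 8 endothelial and 5 of 8 monocyte and macrophage markers. So were 6 of 8 neutrophil and 5 of 8 squamous markers, against 7.16% of all genes. No marker of these lists was at 0 in all libraries. Their part in the values of the laminins, nidogens, Itga3 and Itgam was not tested.

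Between the sets themselves, Itga7, the laminin receptor of muscle, was the one gene of the 39 with all 6 Hoxb13-low libraries above all 12 Hoxb13-high ones, against 1.46% of all genes. It had 40.7 to 73.3 CPM in the Hoxb13-low and 10.4 to 32.1 CPM in the Hoxb13-high libraries. Smooth muscle markers in vector summed to 6339 to 9141 CPM in the Hoxb13-low and 3167 to 5342 in the Hoxb13-high libraries. In TNBS the sums overlapped, at 3110 to 4805 and 2062 to 3590 CPM, and in IBC they were 4833 to 5313 and 2630 to 4778 CPM. Their part in the Itga7 value was not tested.

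**Figure D4:**
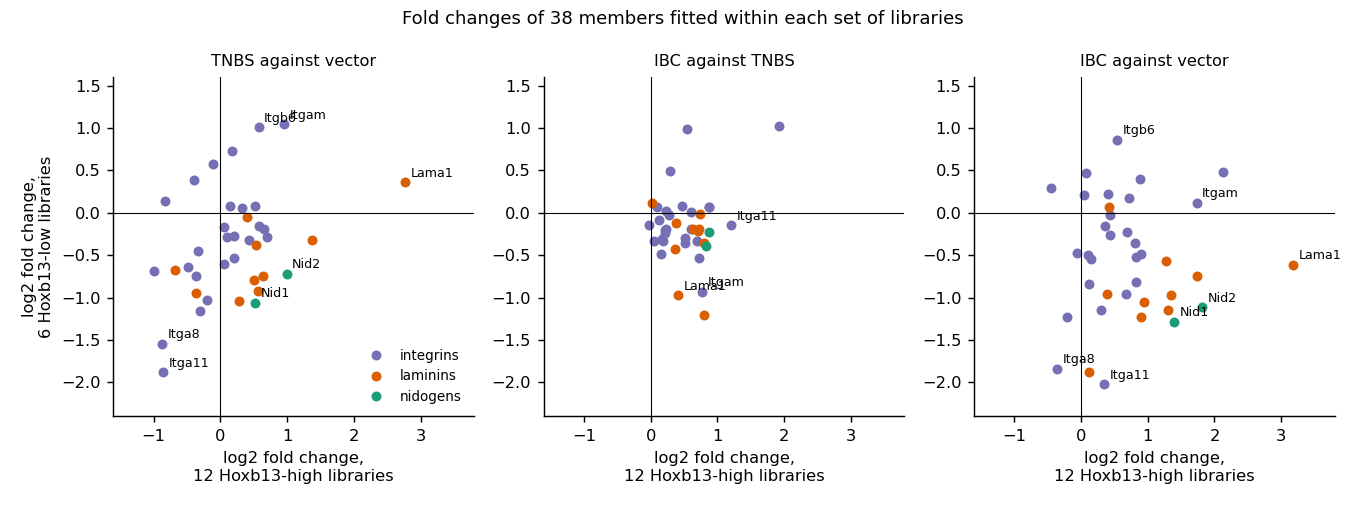
Log2 fold change of 38 of the 39 genes in the 12 Hoxb13-high libraries (x axis) against that in the 6 Hoxb13-low libraries (y axis), for the 3 comparisons; each point is a gene, coloured by family. In the right panel most points lie at the lower right, with medians over all 39 genes of 0.68 in the Hoxb13-high and -0.52 in the Hoxb13-low libraries.

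Genes whose products form one receptor or one laminin varied together to different degrees. In the 12 Hoxb13-high libraries 21 pairs, called subunit pairs here, were compared on log2 CPM. They include Lamc1 with Nid1, whose products bind each other. They also include Nid1 with Nid2, which form neither a receptor nor a laminin. All 21 had a positive Pearson r, and 16 had a Benjamini-Hochberg adjusted permutation p under 0.05 over the 21 pairs. Pairs of other genes were not compared, so the share of them that would pass is not known. The 16 therefore cannot be read as particular to these pairs. Pairs of the basement membrane core were tightest. Lamb1 and Lamc1 had r = 0.98 (rho 0.90, permutation adjusted p 0.00021), and 0.97 without the 2 libraries farthest from the median. Lamc1 and Nid1 had r = 0.96 (rho 0.91, permutation adjusted p 0.00021) and 0.95 without them, and Nid1 and Nid2 r = 0.95 (rho 0.92, permutation adjusted p 0.00042) and 0.93 without them. With each gene centred on its group means, these 3 pairs kept r between 0.87 and 0.96.

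Some pairs of chains of one laminin were looser, with r = 0.69 for Lama3 and Lamb3 (permutation adjusted p 0.016). Lama5 and Lamb2 had r = 0.64 (permutation adjusted p 0.025). Integrin pairs were also looser than the basement membrane core. Itga5 and Itgb1, the fibronectin receptor, had r = 0.82 (rho 0.80, permutation adjusted p 0.0042) and 0.77 without the farthest 2. Itgav had r = 0.81 with Itgb5 (rho 0.82, permutation adjusted p 0.0042), which was 0.87 without the farthest 2. Itga6 and Itgb4 had r = 0.86 (rho 0.59, permutation adjusted p 0.0051), but 0.33 without the farthest 2, so this relation rests on those libraries. Itgam and Itgb2 had r = 0.71 (rho 0.67, permutation adjusted p 0.015) and 0.36 with values centred on group means. Itga4 and Itga8 were not detectably related to Itgb1, with r = 0.46 and 0.18 (permutation adjusted p 0.13 and 0.58). With the farthest 2 libraries left out, 6 of 21 pairs passed instead of 16. All pairs share libraries and their depth and length profile, and TNBS 5 with its low long genes is among the 12.

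**Figure D5:**
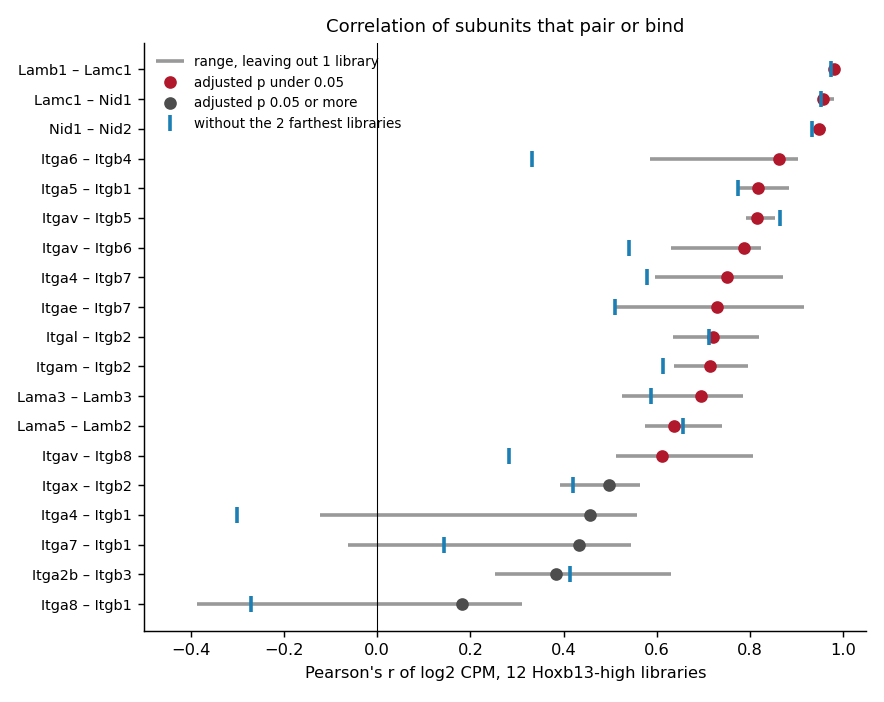
Pearson r of log2 CPM for 19 of the 21 subunit pairs in the 12 Hoxb13-high libraries (points, red where the adjusted p is under 0.05), with grey bars for the range on leaving out 1 library and blue ticks for the value without the 2 libraries farthest from the median. The 3 pairs among Lamb1, Lamc1, Nid1 and Nid2 stay at 0.93 or above, while Itga6 with Itgb4 goes from 0.86 to 0.33.

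Genes that work with integrins and basement membranes were followed in 3 lists: 27 adhesion complex partners, 21 integrin ligands (18 tested) and 25 other basement membrane and hemidesmosome genes. In the 3 comparisons over all 18 libraries edgeR called 0 of any list. In TNBS against vector, 1 partner was higher at an unadjusted p under 0.05 and 2 lower, 4 ligands were higher and 0 lower, and 1 basement membrane gene was higher and 5 lower, against 10.4% higher and 7.32% lower of all genes. The partner counts, of 27, are at or below those shares. Among the partners, Cd47, a surface protein bound to integrins, had 65.5 ± 5.55 CPM in vector and 104 ± 38.7 in TNBS (SD, n = 6 each; edgeR adjusted p 0.140). Tns1, which ties integrins to actin, had 152 ± 80.7 CPM in vector and 69.0 ± 29.3 in TNBS (edgeR adjusted p 0.154). Of the ligands, Thbs1 (thrombospondin) had 63.5 ± 24.1 and 114 ± 62.3 CPM (edgeR adjusted p 0.250), and of the basement membrane genes Ntn4, a netrin that binds laminin, 15.0 ± 3.05 and 8.90 ± 3.62 CPM (edgeR adjusted p 0.182).

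In IBC against TNBS, 25 of 25 basement membrane genes had a log2 difference above 0, with a median of 0.47. Of all tested genes 50.3% did, with a median of 0.00. At an unadjusted p under 0.05, 0 of the 25 were higher or lower, against 1.71% and 2.22% of all genes. Without TNBS 5 it was 23 of 25 above 0, where 51.7% of all genes were. The median of the 25 was 0.62 in the Hoxb13-high libraries and -0.06 in the Hoxb13-low ones. The ligand Fn1 (fibronectin), the substrate of the Itga5 and Itgb1 pair, had 545 ± 351 CPM in IBC, against 277 ± 193 in the TNBS libraries (SD, n = 6; edgeR adjusted p 0.925). In IBC against vector, 4 of the 25 basement membrane genes were higher and 1 lower at an unadjusted p under 0.05. The shares of all genes were 4.90% and 3.63%. Col18a1, a basement membrane collagen, had 42.0 ± 13.5 CPM in vector and 121 ± 65.2 in IBC (edgeR adjusted p 0.313). The complement protein C3, whose fragment binds Itgam with Itgb2, had 87.0 ± 23.4 and 214 ± 98.8 CPM (edgeR adjusted p 0.319). Within the sets, the basement membrane list split as the laminins did, with 11 of 25 higher and 1 lower in IBC than in vector in the Hoxb13-high libraries at an unadjusted p under 0.05 (against 7.16% and 2.91% of all genes), and 11 of 25 lower and 0 higher in the Hoxb13-low ones (against 7.81% and 6.69%). Of the ligands, 10 of 18 were higher at that p in the Hoxb13-high libraries and 0 lower (against 7.16% and 2.91% of all genes). The edgeR test called 1 of the 18 there, and 0.143% of all genes. In the Hoxb13-low libraries 4 of 18 were lower and 1 higher (against 7.81% and 6.69%).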

How the data were processed

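Per library, 5 ug of total RNA was enriched for polyadenylated RNA with oligo(dT) beads, per the labels' protocols, and reads were trimmed with cutadapt 1.9, per the submitters' processing notes. No aligner, counter, annotation or build is given in the sources used here. The authors deposited a whole-number count and an FPKM value per gene and library, per the file headers; the deposited counts pile up at multiples of 4, so a count may not be 1 fragment, and fits with counts divided by 4 were added. Counting by strand is not stated, so overlapping genes cannot be told apart.

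Counts were filtered with filterByExpr, scaled by TMM and tested with edgeR 4.0.16 (quasi-likelihood test, R 4.3.3) with the 18 libraries fitted together and 1 mean for each group, two-sided, adjusted by Benjamini-Hochberg over all tested genes at 0.05. CPM are per 1e6 counts of scaled totals. Alternatives used DESeq2 1.42.0, limma 3.58.1 on log2(FPKM + 0.1) and log2(FPKM + 1), other filters, each library left out and a replicate block. Libraries with Hoxb13 under 10 CPM form the Hoxb13-low set. Subunit pairs were tested over 12 libraries by permutation with 100000 resamples (scipy 1.17.1). The edgeR and pair tests were tested on simulated data. No 2 libraries were duplicates. Library totals set the precision of each count. The genes and lists were chosen with earlier results of these data known. Fold changes with errors are given for the 8 genes with the smallest unadjusted p per comparison (1 gene is counted but not reported here), and for those of the Hoxb13 sets after their values were seen; from each partner list up to 3 genes with the smallest p may be named.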

Additional observations from a re-analysis of the deposited data

Results flagged for a closer look

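In each of the 3 groups of 6 libraries, every gene was checked for a library whose log2 CPM stood apart, with a gap to the nearest library, as a share of the group's range, above Dixon's critical value for 6 samples. Of 117 gene and group combinations 16 met this. The chance rate of about 1 in 20 holds for independent libraries of the same kind. Here each group mixed Hoxb13-high and Hoxb13-low libraries and many genes varied together, so the 16 cannot be set against that rate.

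Vector 3 gave 7 of them. It was the highest vector library for Lamc1 at 155 CPM, Lamb1 at 144 CPM, Nid1 at 138 CPM, Lama4 at 95.2 CPM, Itgb5 at 67.9 CPM and Lama2 at 41.3 CPM, and the lowest for the epithelial subunit Itga6 at 98.2 CPM. The other 5 vector libraries had 49.5 to 69.8 CPM of Lamc1 and 152 to 186 CPM of Itga6. Vector 3 is Hoxb13-low and has the high mitochondrial share.

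TNBS 1 was the highest TNBS library for Lamb3 at 250 CPM, Itgav at 126 CPM and Lama5 at 109 CPM. It also had the most squamous epithelium markers, 189 CPM against 2.19 to 26.8 CPM in the other TNBS libraries. Most of the 189 CPM was Krt14 at 105 CPM and Krt13 at 80.2 CPM, while Krt5 had 0.179 CPM and Trp63 and Ivl had 0. The part of these markers in the Lamb3, Itgav and Lama5 values was not tested. TNBS 5, the library with low long genes, was the lowest for Itga3 at 56.0 CPM, Itga2 at 14.2 CPM, Lamb2 at 12.4 CPM and Lamc3 at 0.130 CPM. In IBC, the Hoxb13-low libraries were lowest: IBC 2 for Itga3 at 112 CPM and IBC 5 for Lamc3 at 0.549 CPM.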

How the results depend on the processing

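Depth limits Itgad, which stayed at 0.549 CPM or below and had 0 counts in 4 libraries. The count of 0 members called held in 25 alternatives for IBC against TNBS, and in all but DESeq2 for TNBS against vector (1 called) and IBC against vector (2 called). Leaving out each library gave 0 in all 3. The replicate numbers were not treated as a pairing, since 7 of 18 same-numbered pairs correlated above 0.1 (median -0.0208), and with the replicate block 0 members were called in each comparison.

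Of 600 fold change values under alternatives for the 24 named, 589 kept their direction and side of the threshold, and 3 passed it, all with DESeq2: Lama1 in TNBS against vector (2.19) and in IBC against vector (2.47), and Itgam in IBC against vector (1.37). The other 8 reversed, all in the Hoxb13-low libraries alone: Itga11 -0.14, Lamb2 -0.013, Nid1 -0.22 and Lamb1 -0.19 in IBC against TNBS, and Lama1 -0.61, Nid2 -1.11, Lamb1 -0.57 and Lama3 -0.75 in IBC against vector. With 2 libraries a group there, the cause was not tested. On log2(FPKM + 1), which shrinks differences of low genes, Lama1 had 0.41 in TNBS against vector and 0.59 in IBC against vector.

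Within the Hoxb13-high libraries, IBC against vector gave 0 members called in the edgeR fit, 7 with DESeq2, 2 with a stricter filter, 3 with limma on log2(FPKM + 0.1), 3 with counts divided by 4, and 0 to 7 with each library left out. TNBS against vector gave 0, 1 with DESeq2 (Lama1) and 0 to 1 with each library left out (1 without TNBS 6). The difference between the Hoxb13 sets in IBC against vector gave 0, 9 with DESeq2 and 0 to 6 with each library left out. These alternatives were chosen after seeing the data, and the cause of each change was not tested. Subunit pairs passing numbered 16, 19 on log2(FPKM + 0.1), 12 to 16 with each library left out, and 6 without the 2 farthest libraries of each pair, which leaves fewer samples.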
